A study of Mus musculus with 6 samples.

Results

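Line B64 is a resistant clone of CT26, a colon carcinoma line from BALB/c mice, and its mRNA was compared here with that of the parental line over all genes. The comparison rests on 4 of the 6 libraries in the series: the 2 titled as clone B64 and the 2 titled as the parental line, each pair being replicates A and B. The other 2 libraries come from line B04, another resistant clone, and are used to see whether a difference is found in B04 too and whether it follows the length of the sequenced fragments. Per the study's methods, all the cells carried a barcode vector of the ClonTracer library, had grown as tumours in BALB/c recipients and were then selected with puromycin and cultured. The parental group was the bulk of such recovered cells and so holds many clones, whereas B64 and B04 were each grown from a single cell. The barcodes of both lines had gained in frequency under antibodies against the checkpoint receptors PD-1 and CTLA-4. In a further transplant by the authors, tumours of either line persisted under the combined antibodies, whereas parental ones shrank. The labels give no treatment of the sampled cells, which grew in RPMI medium. They call the samples tumours, while the methods describe RNA from duplicate cultures. The p-values measure only the spread between such duplicates.

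Interferons are secreted proteins that bind receptors on the cell surface and act through JAK kinases and STAT factors. STAT2 and IRF9 belong to a complex that binds a DNA element called the ISRE (interferon-stimulated response element) and switches on genes for antiviral proteins, nucleic acid sensors and antigen presentation. In tumour cells these genes bear on recognition by T cells and natural killer cells, through MHC class I molecules and through inhibitory ligands.

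The promoters of 4 interferon-induced genes are shown because the ISRE core lies in them. The core was searched as GAAANNGAAA on both strands within the 250 bases before each start listed by RefSeq (GRCm38.p6). Each sequence is written 5′ to 3′ on the strand of its gene, ends next to the start, and has the core in capitals, which in all 4 lies on the strand opposite to the one printed. Ifit1 encodes an antiviral RNA-binding protein, Stat2 a part of the ISRE-binding complex, H2-T23 the non-classical class I molecule Qa-1, and Gbp3 an interferon-inducible GTPase that attacks pathogen vacuoles.
Ifit1, chr19:34640639-34640888, plus strand: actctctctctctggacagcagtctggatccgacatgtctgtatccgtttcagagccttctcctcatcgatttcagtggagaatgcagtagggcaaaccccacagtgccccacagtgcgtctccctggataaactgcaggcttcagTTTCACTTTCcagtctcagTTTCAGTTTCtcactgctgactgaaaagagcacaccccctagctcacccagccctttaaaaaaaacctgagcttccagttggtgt
Stat2, chr10:128270248-128270497, plus strand: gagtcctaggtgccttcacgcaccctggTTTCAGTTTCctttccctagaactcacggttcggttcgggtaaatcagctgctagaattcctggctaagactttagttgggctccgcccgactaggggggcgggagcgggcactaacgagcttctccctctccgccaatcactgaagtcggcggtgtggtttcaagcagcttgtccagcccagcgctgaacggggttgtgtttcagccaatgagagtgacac
H2-T23, chr17:36032702-36032951, minus strand: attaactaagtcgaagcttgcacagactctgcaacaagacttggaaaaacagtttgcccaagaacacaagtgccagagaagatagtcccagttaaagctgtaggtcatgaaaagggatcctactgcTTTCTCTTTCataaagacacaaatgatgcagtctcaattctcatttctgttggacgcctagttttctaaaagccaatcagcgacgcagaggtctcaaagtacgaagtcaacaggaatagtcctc
Gbp3, chr3:142559794-142560043, plus strand: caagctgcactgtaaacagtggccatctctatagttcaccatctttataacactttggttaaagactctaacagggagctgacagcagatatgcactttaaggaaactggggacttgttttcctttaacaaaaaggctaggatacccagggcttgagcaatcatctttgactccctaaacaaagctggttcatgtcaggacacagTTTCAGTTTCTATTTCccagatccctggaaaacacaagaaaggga
Ifit1 held 2 separate matches, which began 104 and 85 bases before the start. Gbp3 held 2 overlapping ones, at 45 and 39 bases. Stat2 held 1 match at 222 bases and H2-T23 held 1 at 124 bases. Gbp3 has 2 listed starts, and the match lies before the one shown.

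The core was present in 3.46% of the 27025 genes with a listed promoter and in 3.21% of the 9560 tested genes that have one. Of the genes higher in B64, 67 of 894 (7.49%) held it, and of those lower in B64, 22 of 769 (2.86%) did. Antiviral effectors that rose numbered 40, of which 33 have a listed promoter, and 15 of these held it (45.5%), against 17 of 43 (39.5%) of all tested ones. It was found in all 6 guanylate-binding and immunity-related GTPases that rose and have a listed promoter, and in 9 of 10 of all tested ones. Among risen genes with a listed promoter it was found in 3 of 6 MHC class I molecules and in 0 of 7 genes of class I peptide processing, against 3 of 10 and 0 of 13 of those tested. These shares describe letters in a window and show no binding.

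The libraries held between 19409204 and 23472012 expected counts. Replicates differed by more than sampling noise, with a chi-square per degree of freedom of 7.17 between the parental libraries and 5.33 between those of B64. Fragments (gene length less RSEM's effective length) measured 277.3 and 276.6 bases for the parental line and 220.8 and 246.2 bases for B64, so their length cannot be told apart from the line in these 4 libraries alone. B04 replicate A had long fragments (271.8 bases) and B04 replicate B short ones (225.2 bases), and a fit with fragment-length class as a term estimates the class effect from them alone. That fit assumes the same class effect in every line. It applies the effect in full to B64 replicate B, whose 246.2 bases lie between those of the B04 libraries. Leukocyte markers summed to 25 and 26.4 TPM (a transcript level scaled for length and library total) for the parental line, 35.4 for both B04 libraries and 61.8 and 61.5 in B64. Of these 27 markers 11 were at 0 in every library, including Cd3e, Cd8a and Fcgr3, and only Cd68, Cd14 and Coro1a reached 1 TPM in both B64 libraries. The part of other cells in the differences of B64 was not tested. Endothelial markers summed to at most 1.04 TPM and erythroid markers to at most 2.69 TPM. The 14 fibroblast and pericyte markers, which include Col1a1 and Col3a1, had the largest sums. These were 377 and 356 TPM for the parental line, 349 and 357 for B04 and 372 and 348 for B64. In both B64 libraries 5 of these markers reached 1 TPM. The colon epithelial markers Vil1, Cdx1 and Car1 were at 0 in every library and Epcam did not exceed 0.06 TPM, whereas Krt18 and Krt20 were present, so the cells carried few of the defining markers of colon epithelium. Fewer cells of a type and less RNA per cell cannot be told apart in such bulk libraries.

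Between B64 and the parental line, 13218 genes were tested with DESeq2 and 2157 (16.3%) passed an adjusted p of 0.05. Of these 1172 were higher in B64 (8.87% of all tested) and 985 lower (7.45%). An unadjusted p under 0.05, counted before genes were filtered, was reached by 3456 genes. Counts of list members at that threshold are to be read against this number. Most changes were small: the median size among called genes was 0.42 on the log2 scale, and 362 genes changed at least 2-fold, 221 up and 141 down. B64 and parental libraries did not overlap in any of the 2157, nor in 61.4% of all genes tested. Called genes mostly kept their change with fragment-length class as a term: 2011 of the 2157 (93.2%) kept the sign and at least 50% of the size. With the term, however, 340 genes (2.64% of 12855 tested) passed the threshold, 234 higher and 106 lower. Whether the other calls were lost to lower precision or to fragment length was not tested. Leaving out B64 replicate A gave the fewest calls, 988 (8.07%), against 1080 (8.54%) without B64 replicate B, 1117 (8.6%) without parental replicate A and 1284 without parental replicate B. The fit without parental replicate B tested 12237 genes. For each called gene given with its values, the change with the class term is added where it missed the threshold.

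**Figure D1:**
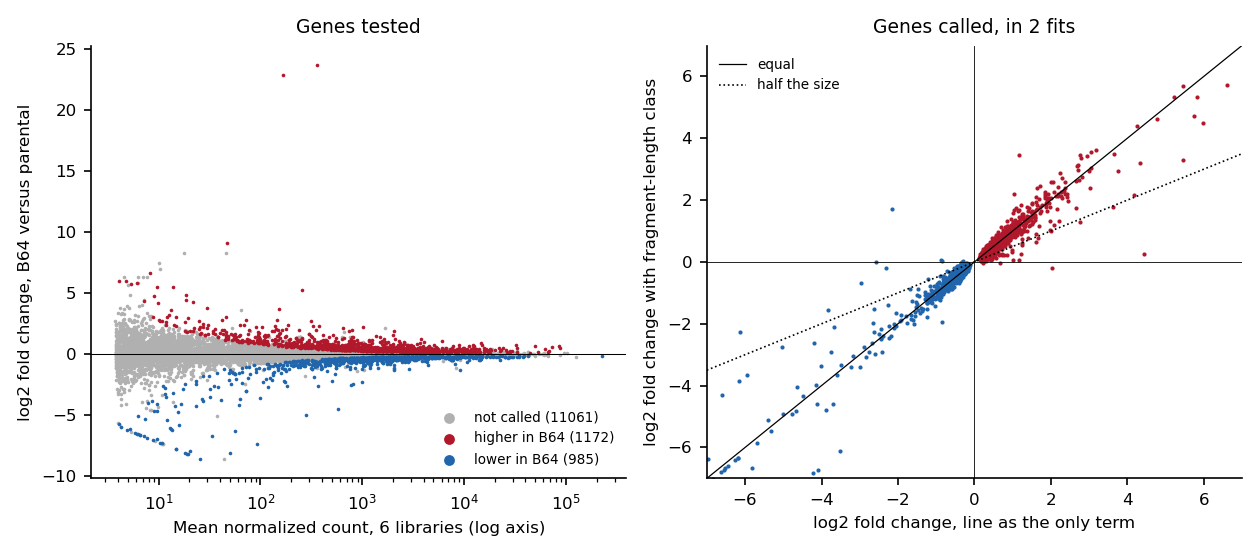
Left, log2 fold change of B64 over parental (vertical axis) against mean normalized count (horizontal axis, log scale) for the genes tested, with called genes coloured by direction. Right, the log2 fold change with fragment-length class as a term (vertical) against that without it (horizontal) for called genes, of which 21 lie outside the limits of ±7. Most called genes change by less than 2-fold, and in 93.2% of them the class term keeps the sign and at least 50% of the size.

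Values of single genes are normalized counts, that is expected counts divided by the size factor of the library, listed for replicate A and then replicate B. Statistics in brackets are the log2 fold change of B64 over parental, its standard error (SE) and the adjusted p of DESeq2.

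Each of the 5 lists of interferon signalling genes that could be tested held members that rose in B64, and 0 members of these lists were lower by DESeq2, at an unadjusted p under 0.05 or by edgeR. Interferon transcripts were at or near 0: of 14 ligand genes 13 had 0 counts in all 6 libraries, and Ifnb1 had 1 count in each B64 library and 0 elsewhere. Of 18 receptors and JAK-STAT genes tested, 4 rose (2 to 4 with single libraries left out, 2 without parental replicate B), with a list median of 0.16 against 0.0 for all genes tested, and 1 passed with the class term. Usp18, the ISG15-specific protease that dampens the type I receptor, had 1700 and 1663 in the parental line, 843 and 675 in clone B04 and 2666 and 2282 in clone B64 (log2 fold change 0.56, SE 0.11, adjusted p = 5.08e-06). Ptpn6, the phosphatase SHP-1, had 308 and 348 in the parental line, 499 and 499 in clone B04 and 584 and 594 in clone B64 (log2 fold change 0.84, SE 0.14, adjusted p = 1.61e-07), and with the class term its change was 0.85, adjusted p = 0.114. Stat2 had 751 and 651 in the parental line, 588 and 593 in clone B04 and 1041 and 954 in clone B64 (log2 fold change 0.51, SE 0.12, adjusted p = 0.00038). B64 was above the parental libraries in all these genes, while B04 was below them for Usp18 and Stat2 and between the lines for Ptpn6. The Stat2 call was lost with the class term (0.5, adjusted p = 0.558), without parental replicate B (0.41, adjusted p = 0.0727) and without B64 replicate A (0.44, adjusted p = 0.0887).

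Among the interferon regulatory factors, DNA-binding proteins that relay or amplify the response, 3 of 8 rose (1 to 3 with single libraries left out, 1 without parental replicate A), and 1 passed with the class term. Irf7, which drives type I interferon genes, had 1194 and 1218 in the parental line, 959 and 853 in clone B04 and 2893 and 2696 in clone B64 (log2 fold change 1.21, SE 0.09, adjusted p = 1.89e-38). It was higher in both B64 libraries than in any other and lower in B04 than in the parental line, and it kept its call with the class term (1.38, adjusted p = 5.83e-12). Irf8, a factor best known from myeloid cells, had 70.6 and 56.1 in the parental line, 55.6 and 57 in clone B04 and 129 and 135 in clone B64 (log2 fold change 1.06, SE 0.32, adjusted p = 0.00889). Its call was lost with the class term (1.02, adjusted p = 0.886) and whenever a parental or a B64 library was left out, with changes from 0.90 to 1.23 and adjusted p from 0.0686 to 0.204.

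Of 18 nucleic acid sensors and related proteins tested, 11 rose (6 to 10 with single libraries left out, 6 without parental replicate B), the list median was 0.55, and 5 passed with the class term. Dhx58, the RNA helicase LGP2, had 152 and 191 in the parental line, 198 and 163 in clone B04 and 370 and 393 in clone B64 (log2 fold change 1.16, SE 0.20, adjusted p = 4.99e-07). Mndal, of the PYHIN family of DNA-binding proteins, had 1073 and 1011 in the parental line, 732 and 706 in clone B04 and 2029 and 1904 in clone B64 (log2 fold change 0.92, SE 0.09, adjusted p = 7.29e-20). Ifi207, of the same family, had 86.8 and 87 in the parental line, 60.2 and 39.7 in clone B04 and 351 and 341 in clone B64 (log2 fold change 1.99, SE 0.25, adjusted p = 8.07e-14). These 3 are among those that kept their call with the class term, with changes of 1.44, 0.97 and 2.59. The B04 values of Dhx58 lay near the parental ones, whereas Mndal and Ifi207 were lower in B04 than in the parental line. Mndal and Ifi207 belong to a cluster of similar genes on chromosome 1, between which reads may be divided.

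Antiviral effectors, the proteins that block steps of viral growth, made up the largest of the interferon lists: 40 of 54 rose and the median was 0.70. With the class term 20 of them passed, and without B64 replicate A 24 did. Ifi27l2a, a small membrane protein induced by interferon, had 1181 and 1101 in the parental line, 1403 and 1559 in clone B04 and 3801 and 3047 in clone B64 (log2 fold change 1.59, SE 0.10, adjusted p = 7.42e-49). Ifitm1, which hinders the entry of enveloped viruses, had 685 and 700 in the parental line, 1864 and 1961 in clone B04 and 1841 and 1872 in clone B64 (log2 fold change 1.42, SE 0.09, adjusted p = 2.69e-52). Ifit1 had 394 and 406 in the parental line, 186 and 185 in clone B04 and 658 and 652 in clone B64 (log2 fold change 0.71, SE 0.15, adjusted p = 2.23e-05), and its change with the class term was 0.72, adjusted p = 0.403. The patterns across lines differed: Ifi27l2a was highest in B64, Ifitm1 was as high in B04 as in B64, and Ifit1 was lower in B04 and higher in B64 than in the parental line. Of 16 guanylate-binding and immunity-related GTPases, 8 rose, with a median of 0.87. The count was 2 with the class term and 3 without B64 replicate A. Gbp7 had 331 and 252 in the parental line, 373 and 357 in clone B04 and 623 and 610 in clone B64 (log2 fold change 1.08, SE 0.16, adjusted p = 1.42e-09), and Gbp3 had 315 and 255 in the parental line, 303 and 250 in clone B04 and 597 and 554 in clone B64 (log2 fold change 1.01, SE 0.17, adjusted p = 1.04e-07). Both lay higher in B64 than in any library of the other lines. Several of these families hold near-identical genes, and how their shared reads were divided rests on RSEM's estimates.

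**Figure D2:**
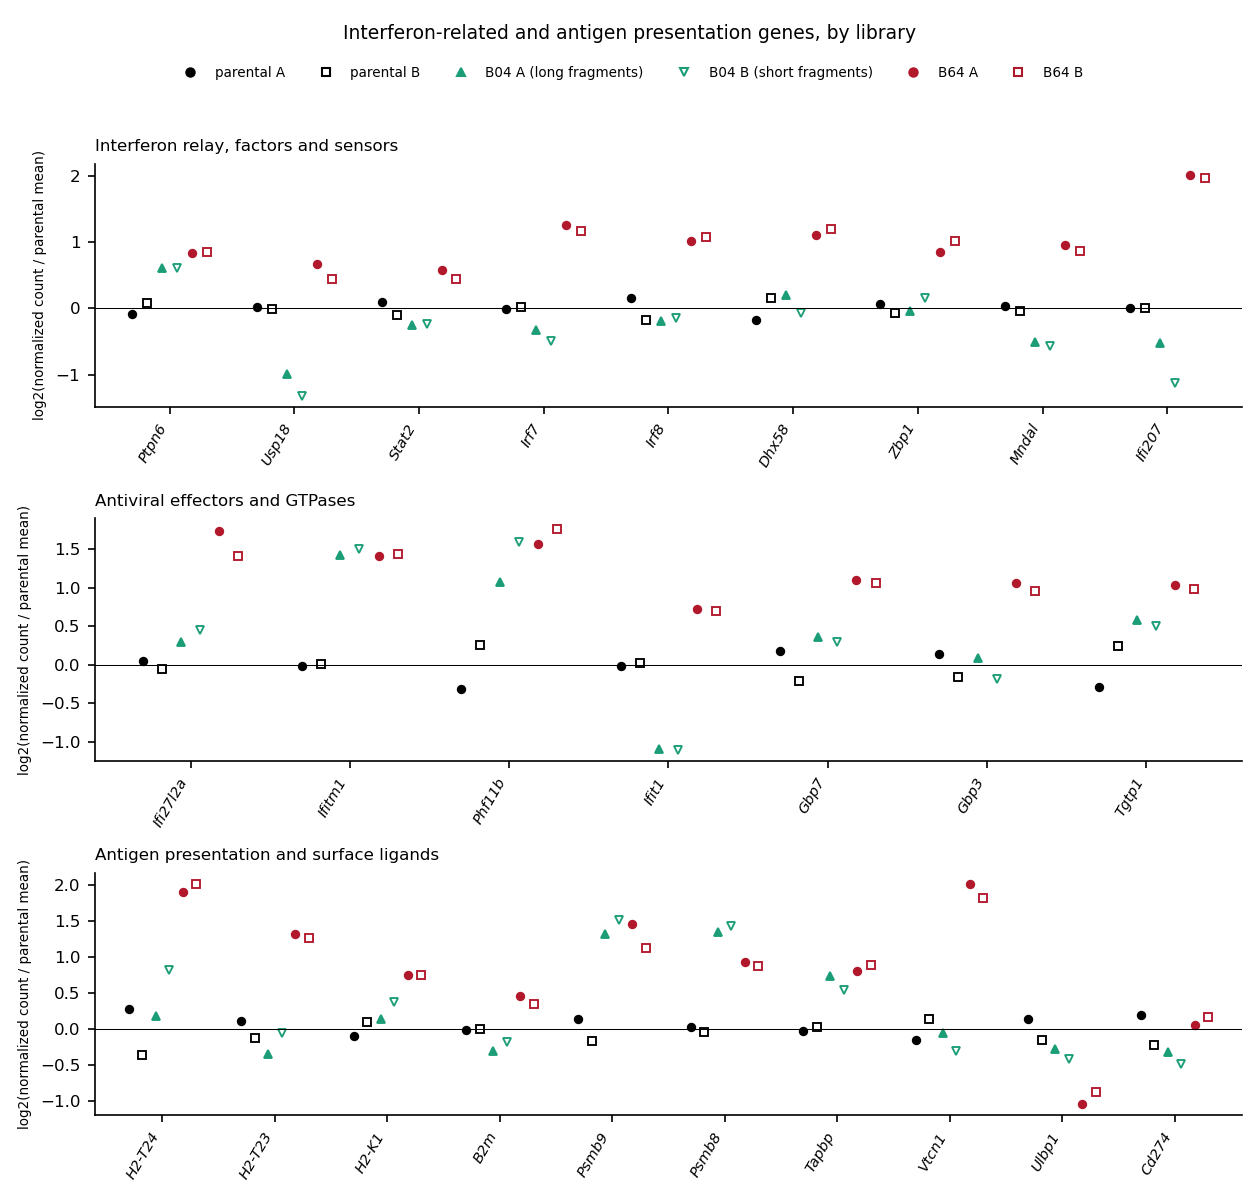
Level of named genes of interferon signalling and antigen presentation in each of the 6 libraries, as log2 of the normalized count plus 0.5 over the parental mean plus 0.5, with 1 point per library and colour and shape by line and replicate. The B64 points lie above the parental ones in every gene but Ulbp1 and Cd274. The B04 points lie below the parental ones for genes that include Ifi207, Mndal, Usp18, Ifit1, Irf7, Stat2, B2m, Ulbp1 and Cd274. For Ifitm1 they lie beside those of B64.

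Of 12 MHC class I molecules tested 7 rose in B64 and 0 fell, the same counts as by edgeR, with a median of 0.57, and 2 passed with the class term. H2-K1, a classical molecule that shows peptides to T cells, had 2192 and 2505 in the parental line, 2579 and 3048 in clone B04 and 3965 and 3944 in clone B64 (log2 fold change 0.75, SE 0.09, adjusted p = 3.41e-15). B2m, the light chain of all class I molecules, had 7997 and 8053 in the parental line, 6531 and 7092 in clone B04 and 11073 and 10249 in clone B64 (log2 fold change 0.41, SE 0.06, adjusted p = 2.51e-09). H2-T23, a ligand of the inhibitory receptor NKG2A, had 192 and 164 in the parental line, 140 and 171 in clone B04 and 445 and 427 in clone B64 (log2 fold change 1.29, SE 0.20, adjusted p = 1.69e-09). B64 exceeded every other library in all these genes. H2-K1 kept its call with the class term (0.51, adjusted p = 0.033), but B2m (0.29, adjusted p = 0.224) and H2-T23 (1.0, adjusted p = 0.264) did not. BALB/c mice carry another MHC haplotype than the mm10 reference, so levels of class I genes also depend on how well their reads aligned, which was not tested. For protein rather than mRNA, the study reported similar baseline MHC class I and PD-L1 in B04, B64 and the parental line by flow cytometry.

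Of 16 genes of class I peptide processing 10 rose and 1 fell (7 to 10 with single libraries left out, 7 without parental replicate A), with a median of 0.33, and 2 passed with the class term. Tapbp, the tapasin that loads peptide on class I, had 1345 and 1394 in the parental line, 2271 and 2001 in clone B04 and 2390 and 2524 in clone B64 (log2 fold change 0.84, SE 0.09, adjusted p = 1.12e-19). Psmb9 had 119 and 96.3 in the parental line, 268 and 309 in clone B04 and 296 and 237 in clone B64 (log2 fold change 1.3, SE 0.22, adjusted p = 2.6e-07), and Psmb8 had 216 and 205 in the parental line, 534 and 567 in clone B04 and 400 and 387 in clone B64 (log2 fold change 0.9, SE 0.16, adjusted p = 6.87e-07). Both are catalytic subunits of the immunoproteasome. Their changes with the class term were 1.1, adjusted p = 0.253 for Psmb9 and 0.82, adjusted p = 0.22 for Psmb8. All these genes were higher in B04 than in the parental line too, and B64 did not exceed B04 in Psmb9 (difference of -0.12, adjusted p = 0.778), while Psmb8 was lower in B64 than in B04 (-0.48, adjusted p = 0.00851). Tpp2, a peptidase that trims peptides, was the gene that fell, with 2473 and 2282 in the parental line, 1831 and 1752 in clone B04 and 1884 and 1809 in clone B64 (log2 fold change -0.36, SE 0.08, adjusted p = 0.000153). Its call was lost with the class term (-0.3, adjusted p = 0.665) and without parental replicate A (-0.31, adjusted p = 0.0507). Neither of the 2 MHC class II genes tested was called by DESeq2 or edgeR, and 1 was higher at an unadjusted p under 0.05.

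Among 14 ligands of checkpoint and other immune receptors tested, 4 rose and 1 fell (3 to 5 with single libraries left out, 3 without parental replicate B). Vtcn1, the inhibitory ligand B7-H4, had 61.1 and 74.8 in the parental line, 65.7 and 55 in clone B04 and 276 and 241 in clone B64 (log2 fold change 1.93, SE 0.27, adjusted p = 9.62e-11). Its level was about the same in the parental line and B04, and it kept its call with the class term (2.18, adjusted p = 0.0097). Ulbp1, a ligand of the activating receptor NKG2D, was the gene that fell, with 1693 and 1381 in the parental line, 1272 and 1150 in clone B04 and 748 and 838 in clone B64 (log2 fold change -0.95, SE 0.12, adjusted p = 4.76e-14). Here B64 lay below every other library. Cd274, which encodes the PD-1 ligand PD-L1, had 184 and 137 in the parental line, 130 and 115 in clone B04 and 168 and 181 in clone B64, and its log2 fold change of 0.12 (SE 0.25, adjusted p = 0.844) was smaller than its error. The B64 values for Cd274 lay between those of the parental libraries. Of 6 chemokines tested 0 were called by DESeq2 or edgeR, and 1 was higher at an unadjusted p under 0.05.

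Single genes are ranked here among protein-coding genes averaging 100 normalized counts or more, whose change kept its sign and at least 50% of its size with the class term. The largest rises in B64 were in genes of unlike known roles. Ptpn7, on chromosome 1 (chr1:135132700-135145317), encodes a MAP kinase phosphatase of lymphoid cells and had 21 and 18.7 in the parental line, 10.9 and 10.2 in clone B04 and 691 and 781 in clone B64 (log2 fold change 5.21, SE 0.29, adjusted p = 1.01e-70). Fcho1, an initiator of clathrin-coated pits, had 42.9 and 23.4 in the parental line, 0 and 0 in clone B04 and 430 and 408 in clone B64 (log2 fold change 3.66, SE 0.30, adjusted p = 1.26e-31). Ccr1, a receptor for inflammatory chemokines, had 180 and 156 in the parental line, 169 and 126 in clone B04 and 862 and 784 in clone B64 (log2 fold change 2.29, SE 0.18, adjusted p = 6.1e-36). The B64 libraries stood far above all others in these genes, and B04 was lowest for Ptpn7 and Fcho1. Fcho1 missed the threshold with the class term (3.5, adjusted p = 1.0). Myo1g, a myosin of blood cells, had 369 and 371 in the parental line, 976 and 962 in clone B04 and 1707 and 1666 in clone B64 (log2 fold change 2.19, SE 0.11, adjusted p = 1.28e-89). It was also above the parental level in B04 and higher still in B64. Ptprc, a marker of all leukocytes, stayed at or under 0.01 TPM throughout.

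Further genes rose by about 4-fold or more. Gap43, a protein of growing axons, had 144 and 141 in the parental line, 135 and 150 in clone B04 and 754 and 627 in clone B64 (log2 fold change 2.27, SE 0.18, adjusted p = 3.78e-33). Phex, a peptidase known from phosphate balance in bone, had 74.4 and 64.5 in the parental line, 74.8 and 51.9 in clone B04 and 293 and 288 in clone B64 (log2 fold change 2.07, SE 0.27, adjusted p = 7.98e-13). Psd3, an exchange factor for ARF6, had 67.7 and 55.2 in the parental line, 47.4 and 56 in clone B04 and 336 and 268 in clone B64 (log2 fold change 2.3, SE 0.27, adjusted p = 4.54e-15). B64 stood several-fold above the other lines in these genes, and the B04 values lay near the parental ones. In a further group the B04 libraries lay above the parental ones too. Serping1, the inhibitor of complement C1, had 26.7 and 28.1 in the parental line, 208 and 218 in clone B04 and 165 and 219 in clone B64 (log2 fold change 2.81, SE 0.31, adjusted p = 5.85e-18). Ly6a, the surface protein Sca-1, had 185 and 182 in the parental line, 1007 and 842 in clone B04 and 878 and 781 in clone B64 (log2 fold change 2.17, SE 0.15, adjusted p = 4.94e-46). Cytip, an adaptor known from leukocyte adhesion, had 53.4 and 47.7 in the parental line, 288 and 252 in clone B04 and 216 and 211 in clone B64 (log2 fold change 2.08, SE 0.25, adjusted p = 1.55e-14), Gsta1, a glutathione transferase, had 57.2 and 44 in the parental line, 198 and 188 in clone B04 and 220 and 186 in clone B64 (log2 fold change 2.0, SE 0.27, adjusted p = 1e-11) and Fetub, a secreted protease inhibitor, had 33.4 and 37.4 in the parental line, 105 and 104 in clone B04 and 156 and 182 in clone B64 (log2 fold change 2.26, SE 0.31, adjusted p = 4.82e-11). Between B64 and B04 these 5 genes differed by -0.15, -0.16, -0.34, 0.07 and 0.70 with adjusted p from 0.0576 to 0.898. The comparisons of the clones with the parental line share its 2 libraries.

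The largest fall was that of Il2rg (chrX:101264378-101268255), the common gamma chain of the receptors for IL-2, IL-4, IL-7 and IL-15, with 269 and 258 in the parental line, 591 and 550 in clone B04 and 5.66 and 10.5 in clone B64 (log2 fold change -5.01, SE 0.41, adjusted p = 1.14e-31). Its level in B64 was 3.1% of that in the parental line, while B04 was higher than the parental line. Il1rap, the co-receptor for IL-1 and IL-33, had 233 and 219 in the parental line, 97.6 and 94.7 in clone B04 and 37.4 and 33.6 in clone B64 (log2 fold change -2.67, SE 0.30, adjusted p = 1.46e-16). Il17ra, a receptor chain for IL-17, had 651 and 656 in the parental line, 610 and 707 in clone B04 and 342 and 350 in clone B64 (log2 fold change -0.92, SE 0.14, adjusted p = 2.79e-09). In both, B64 was the lowest of the lines. In all, 5 of 20 cytokine receptors fell and 2 rose (4 to 5 with single libraries left out, 4 without parental replicate B), and the falls of these 3 genes kept their call with the class term. Syk, a kinase downstream of immune receptors, had 226 and 168 in the parental line, 108 and 81.4 in clone B04 and 39.6 and 55.7 in clone B64 (log2 fold change -2.04, SE 0.32, adjusted p = 8.11e-09), and Ackr3, a scavenger receptor for CXCL12, had 120 and 183 in the parental line, 194 and 168 in clone B04 and 37.4 and 43.1 in clone B64 (log2 fold change -1.91, SE 0.32, adjusted p = 8.83e-08). The changes of these genes with the class term were -1.64, adjusted p = 0.194 and -1.7, adjusted p = 0.122.

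In other large falls B04 lay below the parental line as well. Tmsb4x, which binds actin monomers, had 1718 and 1896 in the parental line, 282 and 285 in clone B04 and 334 and 335 in clone B64 (log2 fold change -2.43, SE 0.12, adjusted p = 1e-86). Igf2r, the receptor that clears IGF2 and sorts lysosomal enzymes, had 1149 and 1014 in the parental line, 218 and 194 in clone B04 and 253 and 211 in clone B64 (log2 fold change -2.22, SE 0.15, adjusted p = 1.17e-44). Pmepa1, a target of TGF-beta that dampens its signalling, had 354 and 342 in the parental line, 82.1 and 95.7 in clone B04 and 64.6 and 88.3 in clone B64 (log2 fold change -2.18, SE 0.25, adjusted p = 1.52e-16). The B64 and B04 libraries were both far below the parental ones, and the direct differences were 0.24, 0.17 and -0.21 with adjusted p from 0.195 to 0.658. Cfb, complement factor B, was lowest in B64 and highest in B04, with 95.4 and 78.6 in the parental line, 369 and 352 in clone B04 and 27.2 and 32.6 in clone B64 (log2 fold change -1.54, SE 0.31, adjusted p = 1.34e-05). Its change in B64 with the class term was -1.47, adjusted p = 0.137. Morc4, a chromatin ATPase, had 235 and 246 in the parental line, 100 and 92.6 in clone B04 and 48.7 and 62 in clone B64 (log2 fold change -2.12, SE 0.28, adjusted p = 1.85e-12), with B04 between the other lines.

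**Figure D3:**
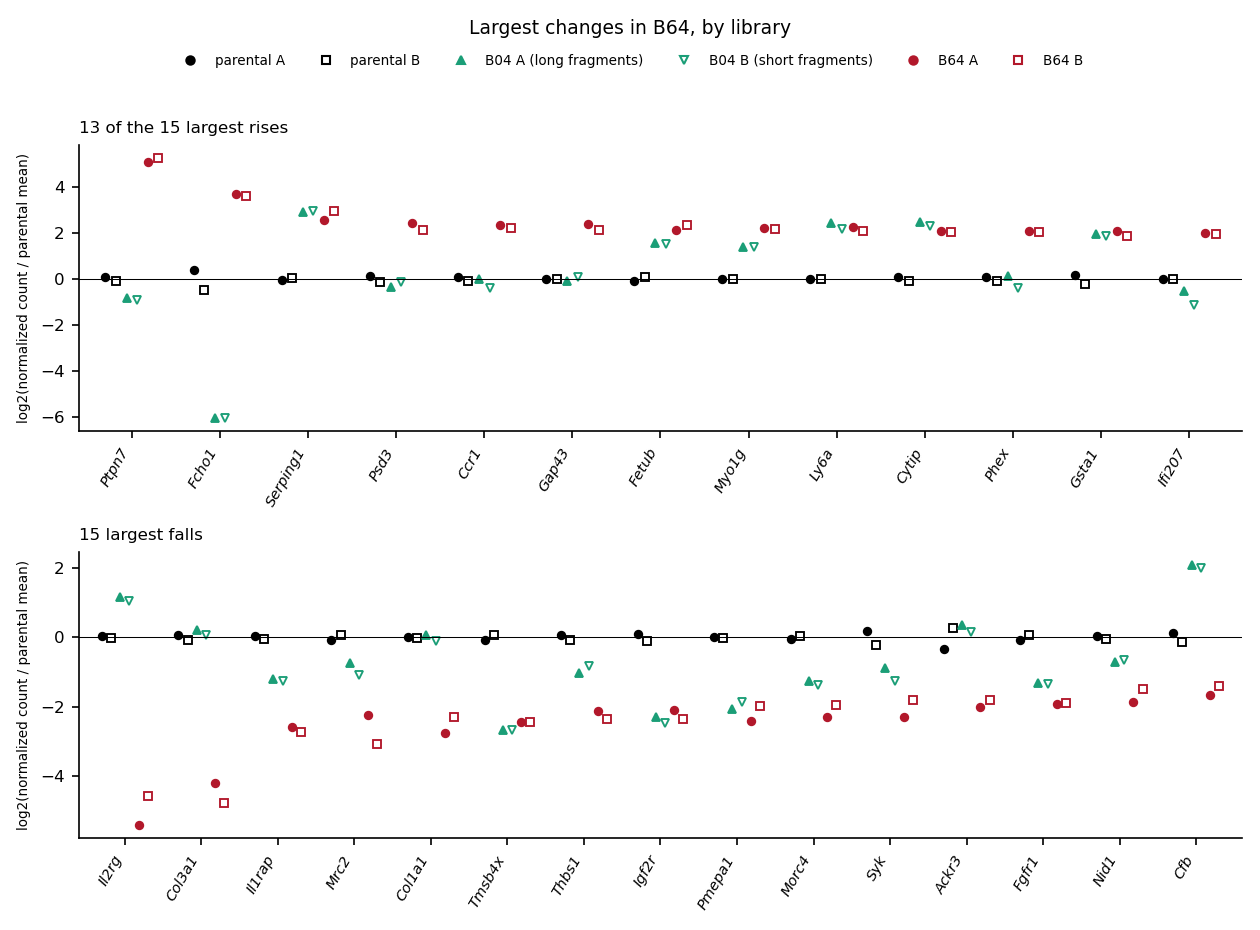
Level in each of the 6 libraries of 13 of the 15 genes with the largest rises and of the 15 with the largest falls, as log2 of the normalized count plus 0.5 over the parental mean plus 0.5, coloured by line. In Serping1, Ly6a, Cytip, Gsta1, Tmsb4x, Igf2r and Pmepa1 the B04 points lie with those of B64, and in Ptpn7, Ifi207, Il2rg and Cfb they lie on the other side of the parental ones.

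Genes of the extracellular matrix moved both ways. Of 17 collagens tested 6 fell and 3 rose (5 to 8 with single libraries left out, 5 without parental replicate A). The fibrillar collagens Col3a1 and Col1a1, which make up much of connective tissue, fell to a small share of the parental level in B64. Col3a1 (chr1:45311538-45349706) had 830 and 762 in the parental line, 928 and 836 in clone B04 and 43 and 28.4 in clone B64 (log2 fold change -4.49, SE 0.22, adjusted p = 4.67e-88), and Col1a1 had 1085 and 1062 in the parental line, 1131 and 1004 in clone B04 and 160 and 219 in clone B64 (log2 fold change -2.5, SE 0.14, adjusted p = 1.18e-63). Their B04 values lay near the parental ones. Col8a1, a short-chain collagen, had 3080 and 2885 in the parental line, 1522 and 1508 in clone B04 and 1580 and 1732 in clone B64 (log2 fold change -0.85, SE 0.08, adjusted p = 1.66e-22), so both clones lay below the parental line. Col4a1, of the basement membrane, was higher in B64, with 5714 and 5606 in the parental line, 6589 and 5996 in clone B04 and 6957 and 7604 in clone B64 (log2 fold change 0.36, SE 0.07, adjusted p = 2.21e-06). These 4 genes kept their calls with the class term.

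Of 29 matrix glycoproteins and proteoglycans 8 fell and 5 rose. Thbs1 and Thbs2 encode thrombospondins, which restrain vessel growth, and they moved in opposite directions. Thbs1 had 318 and 287 in the parental line, 147 and 170 in clone B04 and 69.1 and 58.9 in clone B64 (log2 fold change -2.24, SE 0.25, adjusted p = 2.38e-17), and Thbs2 had 1855 and 1664 in the parental line, 451 and 366 in clone B04 and 4139 and 4160 in clone B64 (log2 fold change 1.24, SE 0.09, adjusted p = 4.34e-40). Thbs2 was at its lowest in B04 and at its highest in B64. Nid1, which links laminin to collagen IV, had 869 and 816 in the parental line, 517 and 536 in clone B04 and 231 and 303 in clone B64 (log2 fold change -1.66, SE 0.15, adjusted p = 6.5e-26). Ecm1, a secreted matrix protein, had 314 and 327 in the parental line, 297 and 300 in clone B04 and 939 and 927 in clone B64 (log2 fold change 1.54, SE 0.13, adjusted p = 9.45e-28) and was at the parental level in B04. Mrc2, a receptor that takes up collagen, had 306 and 339 in the parental line, 192 and 152 in clone B04 and 68 and 37.8 in clone B64 (log2 fold change -2.61, SE 0.28, adjusted p = 3.49e-19). Of 28 matrix enzymes and inhibitors 7 fell and 5 rose, with 2 passing under the class term and 4 called in all without B64 replicate A. Serpinf1, the anti-angiogenic factor PEDF, had 4469 and 4554 in the parental line, 6312 and 6344 in clone B04 and 2508 and 2402 in clone B64 (log2 fold change -0.88, SE 0.06, adjusted p = 6.7e-41), and Bmp1, the protease that trims procollagen, had 631 and 622 in the parental line, 453 and 504 in clone B04 and 327 and 357 in clone B64 (log2 fold change -0.87, SE 0.14, adjusted p = 6.12e-08). Serpinf1 was highest in B04 and lowest in B64. All these matrix genes kept their calls with the class term.

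Of 11 integrin subunits 4 fell and 2 rose (3 to 6 with single libraries left out, 3 without parental replicate A). Itga6, a laminin receptor subunit, had 5983 and 5571 in the parental line, 4524 and 4549 in clone B04 and 7935 and 8053 in clone B64 (log2 fold change 0.47, SE 0.06, adjusted p = 3.97e-13). Itgb7, the partner of the gut-homing integrins, had 8450 and 8431 in the parental line, 9746 and 9281 in clone B04 and 12067 and 12201 in clone B64 (log2 fold change 0.52, SE 0.05, adjusted p = 1.33e-20). Itgb4, which pairs with Itga6 in hemidesmosomes, fell, with 798 and 862 in the parental line, 1252 and 1096 in clone B04 and 548 and 541 in clone B64 (log2 fold change -0.61, SE 0.12, adjusted p = 9.47e-06), and its change with the class term was -0.42, adjusted p = 0.647. For Itga6 and Itgb4 the B04 values lay on the other side of the parental ones. Of 19 genes of cadherin junctions and epithelial state 5 rose and 2 fell (4 to 7 with single libraries left out, 4 without B64 replicate B). Krt20, a keratin of differentiated colon epithelium, had 288 and 321 in the parental line, 286 and 302 in clone B04 and 786 and 817 in clone B64 (log2 fold change 1.4, SE 0.14, adjusted p = 5.11e-20), and Fn1 (fibronectin), commonly used as a mesenchymal gene, had 29452 and 26804 in the parental line, 33644 and 29218 in clone B04 and 40956 and 39129 in clone B64 (log2 fold change 0.51, SE 0.07, adjusted p = 3.86e-12). Both kept their calls with the class term, and Krt20 was at the parental level in B04.

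Lists of growth factor signalling held changes in both directions, with medians between -0.26 and 0.11 for TGF-beta, receptor tyrosine kinases, growth factors, WNT, MAPK feedback and YAP/SRF targets. Of 19 receptor tyrosine kinases 5 fell and 1 rose. Fgfr1, a receptor for fibroblast growth factors, had 574 and 629 in the parental line, 243 and 239 in clone B04 and 160 and 161 in clone B64 (log2 fold change -1.91, SE 0.17, adjusted p = 6.56e-26). Ptk7, a WNT-linked pseudokinase, had 788 and 851 in the parental line, 426 and 454 in clone B04 and 365 and 391 in clone B64 (log2 fold change -1.12, SE 0.14, adjusted p = 1.72e-14), and Axl, the receptor of GAS6, had 17320 and 16638 in the parental line, 14326 and 14146 in clone B04 and 12059 and 13053 in clone B64 (log2 fold change -0.44, SE 0.06, adjusted p = 4.53e-13). B64 was lowest in all of them, and B04 was lower than the parental line as well. These calls were kept with the class term.

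Of 32 growth factors and binding proteins 8 rose and 6 fell (9 to 12 with single libraries left out, 9 without parental replicate B). Among ligands of the EGF receptor family, Areg (amphiregulin) had 488 and 488 in the parental line, 307 and 294 in clone B04 and 1288 and 1123 in clone B64 (log2 fold change 1.3, SE 0.13, adjusted p = 8.76e-23), and Nrg1 (neuregulin) had 718 and 619 in the parental line, 410 and 438 in clone B04 and 249 and 255 in clone B64 (log2 fold change -1.41, SE 0.15, adjusted p = 1.02e-17). Areg was higher in B64 and lower in B04 than in the parental line, while Nrg1 was lower in both clones. Fgf21, a metabolic hormone induced by stress, had 110 and 89.8 in the parental line, 88.5 and 116 in clone B04 and 12.5 and 12.6 in clone B64 (log2 fold change -2.99, SE 0.45, adjusted p = 1.23e-09), which leaves 12.6% of the parental level. Of 33 genes of the TGF-beta and BMP pathway 7 fell and 5 rose (7 to 9 with single libraries left out, 7 without parental replicate A). Grem1, a secreted BMP antagonist, had 5198 and 4889 in the parental line, 3176 and 3165 in clone B04 and 7590 and 7723 in clone B64 (log2 fold change 0.6, SE 0.06, adjusted p = 4.25e-21). All 4 genes kept their calls with the class term. Of 23 WNT genes 4 fell and 2 rose (3 to 5 with single libraries left out, 3 without parental replicate A). Sox9, a factor of intestinal progenitors, had 731 and 681 in the parental line, 524 and 544 in clone B04 and 1300 and 1196 in clone B64 (log2 fold change 0.82, SE 0.11, adjusted p = 1.45e-11) and kept its call with the class term (0.77, adjusted p = 0.0414).

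Of 30 feedback and immediate early genes of the MAPK pathway 8 rose and 2 fell (5 to 9 with single libraries left out, 5 without B64 replicate A). Dusp4, a nuclear MAP kinase phosphatase, had 4792 and 4641 in the parental line, 4478 and 4520 in clone B04 and 6837 and 6901 in clone B64 (log2 fold change 0.54, SE 0.06, adjusted p = 1.76e-18). Ier3, an early survival gene, had 938 and 969 in the parental line, 802 and 761 in clone B04 and 1511 and 1394 in clone B64 (log2 fold change 0.61, SE 0.10, adjusted p = 7.3e-08), and Etv1, an ETS factor, had 314 and 294 in the parental line, 456 and 377 in clone B04 and 540 and 480 in clone B64 (log2 fold change 0.75, SE 0.16, adjusted p = 7.66e-05). B64 exceeded both other lines in these genes. Among 19 targets of YAP and of SRF, which respond to actin and cell tension, 9 fell and 4 rose. Amotl2, a YAP-binding scaffold, had 2047 and 2048 in the parental line, 2124 and 1947 in clone B04 and 1124 and 1207 in clone B64 (log2 fold change -0.81, SE 0.09, adjusted p = 3.43e-18), and Ccn1, a secreted matricellular protein, had 1448 and 1485 in the parental line, 1800 and 1874 in clone B04 and 860 and 840 in clone B64 (log2 fold change -0.79, SE 0.09, adjusted p = 1.3e-15). Ccn1 was highest in B04 and lowest in B64. Tagln2 and Tpm1, which encode actin-binding proteins, were among those that rose and had log2 fold changes of 0.35 and 0.32 (adjusted p = 7.84e-08 and 1.23e-07). With the class term 5 falls and 2 rises in this list passed.

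NRF2 is the factor that induces enzymes against oxidants and reactive aldehydes. Of 30 NRF2 and glutathione genes tested 21 rose and 0 fell (22 and 0 by edgeR), all 30 had a positive change, and the median was 0.33. With the class term 9 passed, and without B64 replicate A 13 did. Aldh3a1, an aldehyde dehydrogenase, had 254 and 259 in the parental line, 1112 and 1135 in clone B04 and 922 and 1046 in clone B64 (log2 fold change 1.94, SE 0.13, adjusted p = 4.47e-50). Nqo1, the quinone reductase, had 82 and 83.2 in the parental line, 138 and 110 in clone B04 and 244 and 264 in clone B64 (log2 fold change 1.62, SE 0.25, adjusted p = 4.46e-09). Gstm1, a glutathione transferase, had 562 and 573 in the parental line, 2020 and 1857 in clone B04 and 1250 and 1241 in clone B64 (log2 fold change 1.13, SE 0.10, adjusted p = 3.47e-27). In these genes B04 was above the parental line as well, and Gstm1 was higher in B04 than in B64 (difference of -0.64, adjusted p = 3.34e-10). Gstm1 and Gsta1 belong to families of similar genes, between which reads may be divided.

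Of 29 genes of glycolysis and the hypoxia response 19 rose and 1 fell, with a median of 0.23, and 4 passed with the class term. Without parental replicate A 11 were called. Ndrg1, a hypoxia-induced stress protein, had 11667 and 11601 in the parental line, 13711 and 12986 in clone B04 and 20901 and 19194 in clone B64 (log2 fold change 0.78, SE 0.06, adjusted p = 8.75e-40). Slc2a1, the glucose transporter GLUT1, had 3198 and 3472 in the parental line, 3020 and 3185 in clone B04 and 5208 and 5340 in clone B64 (log2 fold change 0.66, SE 0.07, adjusted p = 1.06e-19). Eno2, a form of enolase, had 971 and 979 in the parental line, 638 and 670 in clone B04 and 1632 and 1667 in clone B64 (log2 fold change 0.76, SE 0.10, adjusted p = 3.27e-13). B64 was the highest line in all of them. Eno1, the common enolase, was the member that fell, with 30299 and 31680 in the parental line, 32005 and 32018 in clone B04 and 25917 and 27012 in clone B64 (log2 fold change -0.23, SE 0.05, adjusted p = 7.7e-05), and its call was lost with the class term (-0.23, adjusted p = 0.311). Eno1 has processed copies in the genome, which can share its reads. Among 32 genes of amino acid response and serine synthesis 7 rose and 7 fell (4 to 12 with single libraries left out, 4 without B64 replicate A), and among 25 genes of the unfolded protein response 3 rose and 1 fell. Ero1l, the oxidase that forms disulfide bonds in the endoplasmic reticulum, had 11975 and 11683 in the parental line, 10533 and 10238 in clone B04 and 21950 and 21825 in clone B64 (log2 fold change 0.89, SE 0.05, adjusted p = 1.48e-68). Ddit4, a stress-induced inhibitor of mTORC1, had 2027 and 2171 in the parental line, 2571 and 3012 in clone B04 and 3554 and 3637 in clone B64 (log2 fold change 0.78, SE 0.08, adjusted p = 5.12e-18). Both were higher in B64 than in any other library.

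Of 40 lysosomal genes 16 rose and 0 fell (19 and 0 by edgeR), with a median of 0.25, while 7 passed with the class term and 8 without B64 replicate A. Cd68, a lysosomal membrane protein also used as a macrophage marker, had 188 and 170 in the parental line, 187 and 170 in clone B04 and 729 and 646 in clone B64 (log2 fold change 1.94, SE 0.17, adjusted p = 1.79e-27). Grn, progranulin, had 7296 and 7171 in the parental line, 7146 and 6670 in clone B04 and 12657 and 12080 in clone B64 (log2 fold change 0.77, SE 0.06, adjusted p = 6.34e-38). Both were at the parental level in B04. Of the leukocyte markers, Cd14 was also higher in B64 (log2 fold change 0.65, adjusted p = 0.000433, and 0.57, adjusted p = 0.665 with the class term) and lay above the parental line in B04, whereas Adgre1, Csf1r and Itgam stayed at or under 0.07 TPM. The summed level of the leukocyte markers, given with the libraries above, includes Cd68, so its rise in B64 is not separate from that of Cd68. Cd68 alone had 10.7 and 10.1 TPM in the parental line and 39.6 and 36.1 TPM in B64. The part of other cells in the Cd68 rise was not tested. Of 30 genes of sterol synthesis and uptake 14 rose and 0 fell (16 and 0 by edgeR), with a median of 0.21, but the changes were small, 1 passed with the class term and 4 without B64 replicate B. Npc2, which carries cholesterol out of the lysosome, had 4836 and 5106 in the parental line, 4911 and 5059 in clone B04 and 6932 and 6678 in clone B64 (log2 fold change 0.45, SE 0.06, adjusted p = 7.12e-12). Of 25 genes of fatty acid metabolism 3 rose and 4 fell (2 to 6 with single libraries left out, 2 without parental replicate A). Scd1, a fatty acid desaturase, had 13264 and 12302 in the parental line, 18171 and 18933 in clone B04 and 17216 and 17916 in clone B64 (log2 fold change 0.46, SE 0.06, adjusted p = 2.63e-14). The sterol list had a median of -0.22 between B64 and B04.

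Genes of cell division changed little. Of 46 DNA replication genes 2 rose and 4 fell (2 to 5 with single libraries left out, 2 without B64 replicate A), of 43 mitotic genes 4 rose and 2 fell (2 to 5 with single libraries left out, 2 without B64 replicate B), and their medians were 0.01 and -0.02. Of 25 p53 targets 6 rose and 0 fell (2 to 3 with single libraries left out, 2 without parental replicate A), while edgeR called 2 lower and 4 were lower at an unadjusted p under 0.05. Cdkn1a, the inhibitor p21 and a p53 target, had 7082 and 7182 in the parental line, 6324 and 6045 in clone B04 and 8962 and 9000 in clone B64 (log2 fold change 0.33, SE 0.06, adjusted p = 7.61e-08) and kept its call with the class term (0.4, adjusted p = 0.0121). Of 13 mitochondrially encoded proteins 0 were called by DESeq2, and edgeR called 2 (24.6% of all genes tested with it). At an unadjusted p under 0.05, which 3456 genes reached in either direction, 3 were higher. Of 46 nuclear respiratory chain genes 5 rose and 3 fell (4 to 7 with single libraries left out, 4 without parental replicate A). Over all genes tested 16.3% were called in either direction. With the class term 0 rises and 1 fall of this list passed. By the rule for sign and size given above, the class term kept 1 of the 5 rises and all 3 falls.

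All 6 tested members of the Ly6 family of surface proteins rose, with a median of 1.90, and 3 passed with the class term. Ly6c1 had 74.4 and 75.8 in the parental line, 607 and 571 in clone B04 and 253 and 213 in clone B64 (log2 fold change 1.63, SE 0.21, adjusted p = 2.98e-13), so it was higher still in B04. The family is a cluster of similar genes. Of 9 enzymes linked to immune suppression 3 rose. Ptgs2, the inducible cyclooxygenase that leads to prostaglandin E2, had 9013 and 8490 in the parental line, 5593 and 5058 in clone B04 and 12751 and 12281 in clone B64 (log2 fold change 0.52, SE 0.06, adjusted p = 2.43e-14), and Ptgs1, its constitutive counterpart, had 2770 and 2665 in the parental line, 4314 and 4348 in clone B04 and 3958 and 4204 in clone B64 (log2 fold change 0.59, SE 0.07, adjusted p = 2.97e-16). Ptgs2 was lowest in B04 and highest in B64, whereas Ptgs1 was higher in both clones than in the parental line. Among secreted factors, Spp1 (osteopontin) had 40168 and 41841 in the parental line, 40472 and 39572 in clone B04 and 66421 and 66885 in clone B64 (log2 fold change 0.7, SE 0.05, adjusted p = 1.68e-48) and Lgals3 (galectin-3) had 15960 and 17690 in the parental line, 14663 and 14575 in clone B04 and 22194 and 23282 in clone B64 (log2 fold change 0.43, SE 0.06, adjusted p = 8.11e-12), both highest in B64. Of 15 glucocorticoid receptor genes and targets 5 rose and 1 fell.

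**Figure D4:**
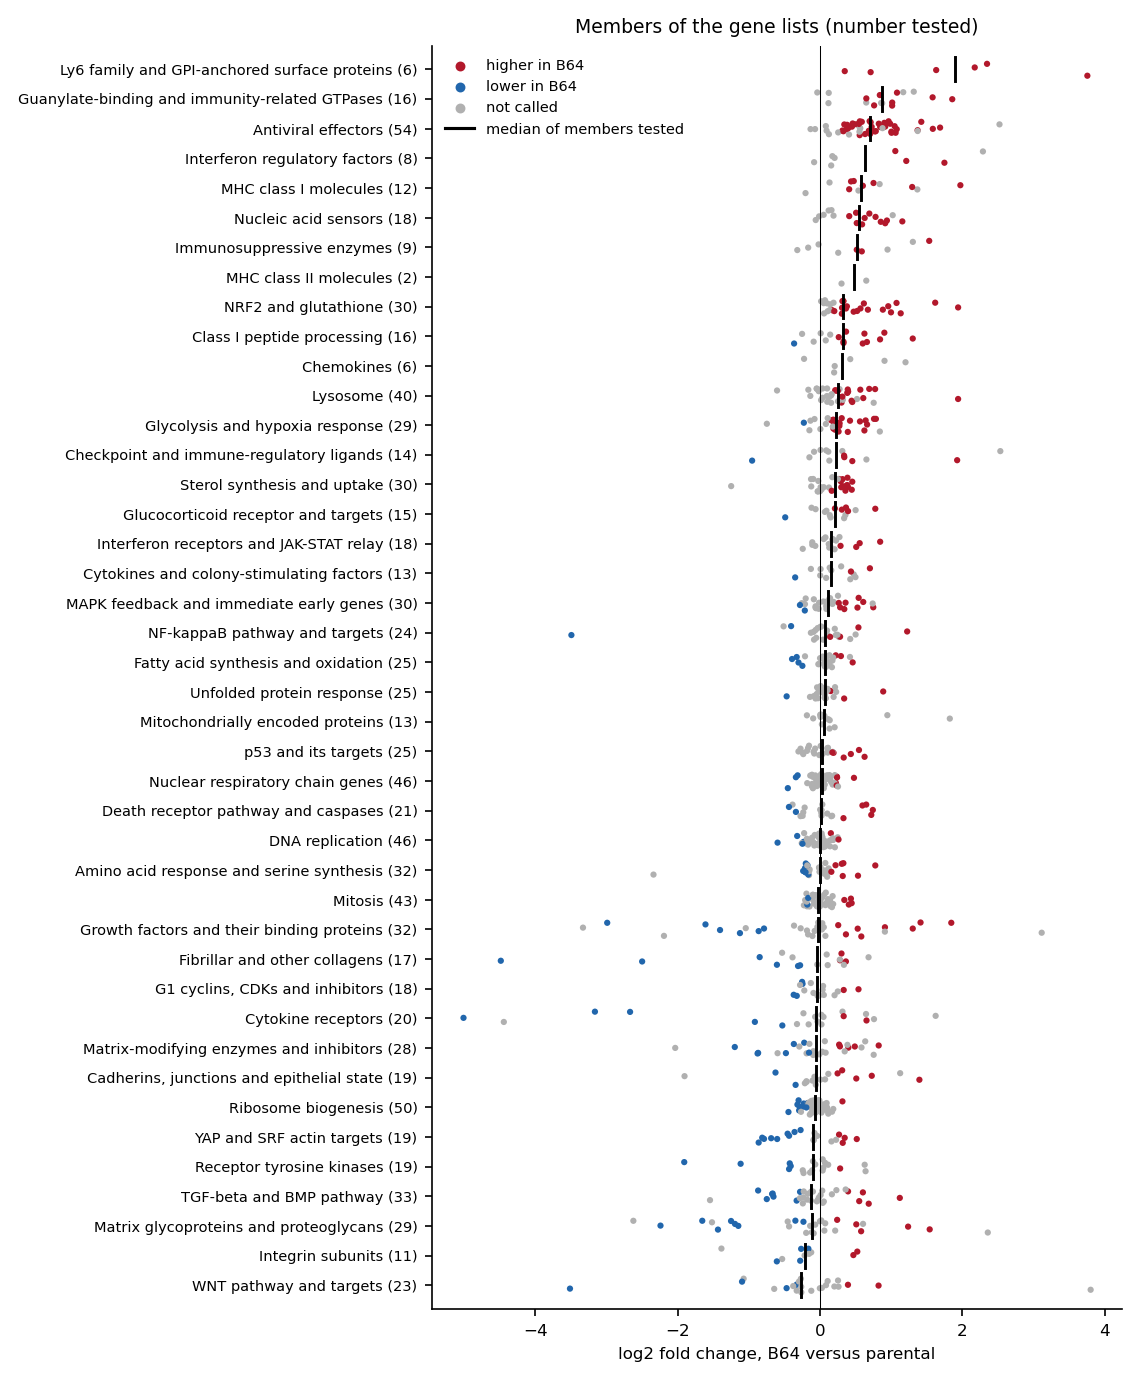
Log2 fold change of B64 over parental (horizontal axis) for every tested member of each list, with the number tested in brackets, called genes in red (higher) or blue (lower), and a black bar at the median of the members. The medians run from 1.90 for the Ly6 family to -0.26 for the WNT pathway, and the lists of antiviral effectors, NRF2, lysosome and sterol genes hold called genes on the higher side only.

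Genes were also ordered along the chromosomes, with the cut-offs and stretches chosen after the values had been seen. On chromosome 6, 4 runs of neighbouring genes had a running median over 31 genes beyond 0.25 in size. In the longest (chr6:90604725-113597017, from Slc41a3 to Fancd2) 33 of 65 tested genes were lower and 0 higher, with a median of -0.47 (1 higher by edgeR and at an unadjusted p under 0.05). The library medians were -0.45 and -0.44 in B64 and -0.01 and -0.09 in B04, so B04 hardly showed the shift. Of the genes of this run 31 were lower than in B04 (11.1% of all genes were, and 24.3% of 12855 differed in either direction). All runs were picked by the changes of B64, so calls on 1 side partly follow from that choice. The same B64 libraries enter the count against B04, which is therefore no separate support. A shorter run (chr6:120364124-122845366) held 11 lower genes and 1 higher of 17, with a median of -0.44, and Il17ra and Bid lie in it.

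Further along, 2 runs were higher. Of 39 tested genes in chr6:128362967-136610862, 15 were higher and 0 lower, with a median of 0.33. Of 41 in chr6:142234227-149563329, 19 were higher and 0 lower, with a median of 0.41, which is 1.33-fold. In both runs 0 genes were lower by edgeR or at an unadjusted p under 0.05. The library medians of the latter were 0.41 and 0.37 in B64 and 0.09 and 0.05 in B04. Itpr2, a calcium channel of the endoplasmic reticulum, changed by 0.81 there and Ccdc91 by 0.89, with adjusted p of 4.76e-14 and 1.19e-14. With the class term 5 genes of the run passed. Without either B64 replicate A or B64 replicate B, 12 genes beyond 140 Mb were called in place of 19. DNA copy number was not measured in these files.

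Another stretch lay lower in both clones. Of 388 genes tested in the first 100 Mb of chromosome 1, 109 (28.1%) were lower in B64 and 18 (4.64%) higher, against 7.45% and 8.87% of all genes. The median was -0.23 in B64 and -0.23 in B04. Part of the change in some lists lay there. Of 50 ribosome biogenesis genes 10 fell and 1 rose (3 to 9 with single libraries left out, 3 without B64 replicate A), and 6 of the falls (Ncl, Nop58, Wdr12, Wdr75, Imp4 and Rrs1) were all 6 of the list's genes on this stretch, while 4 of 44 fell elsewhere. Imp4, of the particle that processes ribosomal RNA, had 2423 and 2431 in the parental line, 1624 and 1535 in clone B04 and 1769 and 1799 in clone B64 (log2 fold change -0.44, SE 0.08, adjusted p = 7.05e-07). Nop58, a core protein of box C/D particles, had 6738 and 6571 in the parental line, 5125 and 5247 in clone B04 and 5290 and 5387 in clone B64 (log2 fold change -0.32, SE 0.06, adjusted p = 1.21e-06). With the class term their changes were -0.36, adjusted p = 0.387 and -0.35, adjusted p = 0.0731, and no gene of the list passed. Orc2, of the origin recognition complex, lies there too, with 3553 and 3235 in the parental line, 2386 and 2374 in clone B04 and 2238 and 2249 in clone B64 (log2 fold change -0.6, SE 0.08, adjusted p = 1.81e-13), as do Col3a1, Tpp2 and Cflar. Col3a1 was not lower in B04, whereas the other genes named here were lower in both clones.

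**Figure D5:**
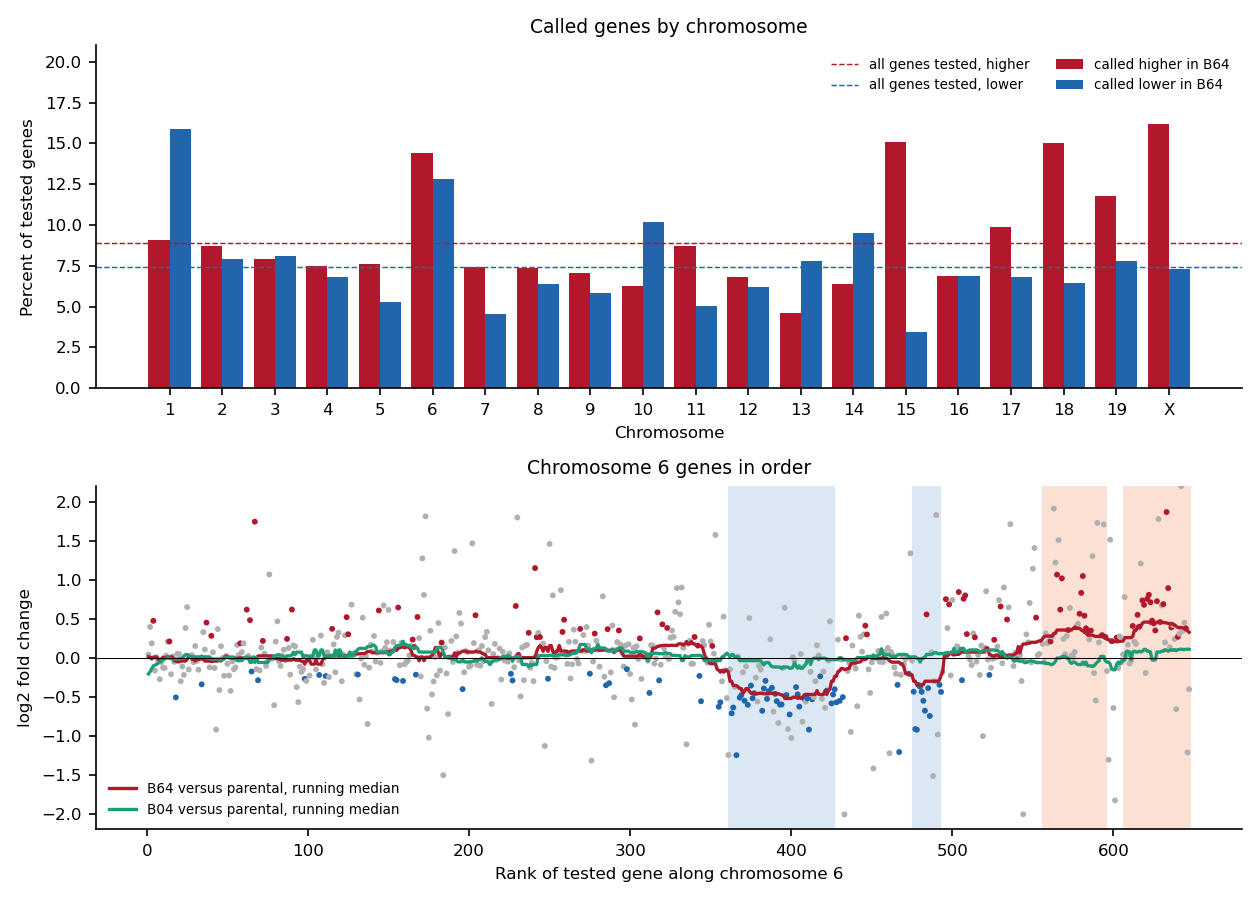
Top, percent of tested genes called higher (red) and lower (blue) in B64 on each chromosome, with the shares over all genes as dashed lines (8.87% and 7.45%). Bottom, log2 fold change of each tested gene by its rank along chromosome 6, with called genes coloured, running medians over 31 genes for B64 (red line) and B04 (green line), and the 4 runs shaded blue for lower and pink for higher. On this panel 10 genes lie outside the limits of ±2.2. The runs were picked by these changes, and called genes in them lie almost all on 1 side of 0, with 1 exception.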

How the data were processed

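The authors sequenced oligo(dT)-selected mRNA as paired reads, aligned it to mm10 with STAR and quantified genes with RSEM (submitters' processing notes and methods). Each deposited table lists expected counts, in which RSEM divides shared reads between genes, and TPM, a relative transcript level scaled by the authors' RSEM for effective length and total. TPM was used only for marker levels. The annotation release is not given in the sources used here, and strand-aware counting is not stated. GENCODE M21 (GRCm38) matched 53620 of 53801 identifiers (99.7%).

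Expected counts were rounded and tested with DESeq2 1.42.0 (R 4.3.3): 1 fit of all 6 libraries with line as its term, Wald test, independent filtering, Benjamini-Hochberg adjusted p under 0.05. Library totals ran from 19409204 to 23472012, and precision is set by 2 libraries a group. Alternatives were edgeR 4.0.16 (quasi-likelihood), TMM factors, a filter of 10 counts in 2 libraries, 2 groups only, the replicate letter as a block, fragment-length class (long at 260 bases or more), an effective length offset, a 2-fold minimum and leaving out each library. The fits of the far end of chromosome 6 were added after seeing the data.

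The comparison and its 48 gene lists (43 of pathways, 5 of cell type markers) were chosen with earlier results of these data known. Genes were named by rule: the 15 largest rises and falls among called protein-coding genes of at least 100 mean counts whose libraries did not overlap and whose change kept its sign and 50% of its size with the class term, up to 3 in each direction per list (at least 50 mean counts), and 8 genes tied to the study's text. These gave 186 genes. The text gives values mainly for those that kept their call without each library. An alias that matched another gene (Rae1) was taken out of the checkpoint list after the tables were read. Tests were checked on simulated counts, where 17 of 200 calls were false. Values of some named genes are not reported here.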

Additional observations from a re-analysis of the deposited data

Results flagged for a closer look

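In 15 of the genes named, B64 differed from the parental line in 1 direction and B04 in the other, by at least 0.5 on the log2 scale each way. The rule also asked that the direct difference between B64 and B04 pass DESeq2's adjusted p of 0.05. Of all 12855 genes tested 24.3% passed this direct test, in either direction and without the rest of the rule. Opposite changes of that size already imply a direct difference, so the adjusted p-values below describe these genes and are no separate support. Both comparisons with the parental line share its libraries, so the difference given is the direct one, B64 over B04 on the log2 scale.

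In the interferon response, Usp18 differed by 1.70 (adjusted p = 2.52e-51), Mndal by 1.45 (6.43e-48), Ifi207 by 2.78 (7.46e-24) and Ifit1 by 1.82 (1.18e-29). All lay above the parental libraries in B64 and below them in B04. Ptpn7, the phosphatase, differed by 6.12 (adjusted p = 2.9e-63). Fcho1 had a fitted difference of 11.21 (adjusted p = 7.53e-13) that depends on the model, since both B04 libraries had 0 counts. Against a floor of 3 counts in each B04 library it was at least 145-fold higher in B64.

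Among receptors and secreted proteins, Il2rg differed by -6.13 (adjusted p = 2.68e-48), Cfb by -3.59 (2.19e-32) and Thbs2 by 3.34 (1.01e-239). Grem1 differed by 1.27 (4.7e-92), Areg by 2.0 (4e-50) and Ptgs2 by 1.23 (1.27e-80). Ccn2, a YAP target, had 172 and 179 normalized counts in the parental line, 303 and 349 in clone B04 and 88.3 and 104 in clone B64, a difference of -1.76 (adjusted p = 2.59e-13). Its fall from the parental line (-0.86) was lost without parental replicate A (-0.89, adjusted p = 0.0504), parental replicate B (-0.84, adjusted p = 0.0604) or B64 replicate A (-0.75, adjusted p = 0.124). Itgb4 differed by -1.11 (adjusted p = 4.2e-19) and Eno2 by 1.34 (5.62e-39). With 2 libraries in each group no group was large enough for a test of outlying libraries.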

How the results depend on the processing

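The count of genes called between B64 and the parental line (2157) was within 1.5 times of that value with edgeR (3038), TMM size factors (2180), a count filter (2399), only the 2 groups in the fit (1981) and effective length as an offset (1671). A similar count does not mean the same genes: 1393 of the 1671 called with that offset were among the 2157. It was 340 with fragment-length class as a term, 362 with a 2-fold minimum and between 988 and 1772 with single libraries left out. Between B64 and B04 it was 3118, and it became 1625 with the class term, 438 with the 2-fold minimum and 1696 to 2758 with single libraries left out. Higher genes made up 54.3% of the calls against the parental line and 68.8% with the class term. Of the 186 named genes 97 lost their call with the class term and 26 with the effective length offset. The reason for these losses was not tested. The log2 fold change of Cd274 (0.12) was -0.082 without parental replicate B (to 0.34 over single libraries left out), and the median of the 2 MHC class II genes was -0.14 without B64 replicate A (to 0.76). The medians of the colon epithelial (0.73) and erythroid (1.06) markers became -0.71 and -2.34 with the class term, and those of DNA replication (0.01) and mitosis (-0.02) became -0.01 and 0.01. In all, 10 pathway lists with a median within 0.1 of 0 changed sign under at least 1 alternative. Whether replicate letters pair the libraries across lines is not stated. Correlations of the A-minus-B deviations over 11996 genes were 0.111 for parental and B04, 0.013 for parental and B64 and -0.045 for B04 and B64. With a single such deviation per line they cannot settle the question. With the letter as a replicate block the counts were 1716 and 2638. The analysis is limited by 2 libraries a group and by fragment length, which separates B64 from the parental line and is bridged by 1 B04 library of each class only. On counts simulated at these depths for B64 against the parental line (14855 genes tested), 84 of 100 changes of 1 and 99 of 100 of 2 on the log2 scale were recovered. These changes were placed only in genes of at least 50 mean counts, with no effect of fragment length. Smaller changes, such as the median of 0.42 among called genes, were not simulated.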

Other observations

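Of 24 genes of the NF-kappaB pathway 4 rose and 2 fell (1 to 4 with single libraries left out, 1 without parental replicate A) in B64 against the parental line, with a median of 0.07. Ikbkg, the regulatory subunit of the kinase that activates NF-kappaB, had 1137 and 1133 in the parental line, 1610 and 1467 in clone B04 and 1672 and 1627 in clone B64 (log2 fold change 0.54, SE 0.09, adjusted p = 1.39e-07) and kept its call with fragment-length class as a term (0.67, adjusted p = 0.00893). Of 21 genes of death receptor signalling and caspases 5 rose and 2 fell. Gsdmd, the pore former of pyroptosis, had 438 and 410 in the parental line, 920 and 999 in clone B04 and 719 and 698 in clone B64 (log2 fold change 0.74, SE 0.12, adjusted p = 9.52e-08), with B04 higher still. Cflar, an inhibitor of caspase-8 activation, had 3172 and 3117 in the parental line, 1426 and 1417 in clone B04 and 2551 and 2421 in clone B64 (log2 fold change -0.34, SE 0.07, adjusted p = 8.18e-05), and B04 lay lower than B64. With the class term the changes of Gsdmd and Cflar missed the threshold (0.62, adjusted p = 0.223 and -0.33, adjusted p = 0.449). Of 13 cytokines and colony-stimulating factors tested 2 rose and 1 fell, and of 18 cyclins, kinases and inhibitors of the G1 phase 2 rose and 4 fell (2 to 5 with single libraries left out, 2 without parental replicate A). Among the tested markers of cell types, 2 of 5 leukocyte markers rose and 1 fell (1 to 3 with single libraries left out, 1 without parental replicate A), 2 of 5 colon epithelial markers rose (1 to 3 with single libraries left out, 1 without parental replicate A), and 1 of 9 fibroblast and pericyte markers rose and 2 fell. The 2 erythroid markers and the 1 endothelial marker tested were not called, by edgeR either or at an unadjusted p under 0.05.

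Some called changes followed fragment length rather than the line. Of 35 called pseudogenes 17 rose, and 9 of these kept the sign and at least 50% of the size with the class term. Gm10259, a processed pseudogene, was at 0 in the long-fragment libraries (both parental ones and B04 replicate A), and had 1009 normalized counts in B04 replicate B and 731 and 396 in B64. Rpl30-ps9, a pseudogene of a ribosomal protein gene, was at 0 in the same 3 libraries and had 397, 195 and 411 in the others. In Gm11518 the order was the other way, with 679, 614 and 578 in the long-fragment libraries and 97.7, 108 and 109 in the short-fragment ones. Gm11808, annotated as protein-coding, had 2175, 1443 and 1290 against 295, 270 and 456. These 4 were the called genes with at least 100 mean normalized counts and a log2 fold change of at least 2 in size whose change the class term did not keep, and they were chosen after the values were seen. Such a rule itself picks genes that split by class, so their split is no separate support.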
